A study of Mus musculus with 6 samples.

Results

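The genes described here encode 8 surface proteins through which a dendritic cell signals to lymphocytes and to other immune cells: Cd80, Cd86, Icosl, Cd40, Cd83, Cd274, Pdcd1lg2 and Cd200. They were chosen by name, as activating and inhibitory costimulatory molecules, and are 8 of the 23398 genes with a value. The cells were dendritic cells grown from mouse bone marrow (BMDC) in DMEM with fetal bovine serum, penicillin and streptomycin. They received vehicle (3 libraries) or Ca(OH)2 nanoparticles (3 libraries), in each case for 12 hours. The strain, the age of the mice, the dose, the composition of the vehicle and any growth factor in the culture were not given in the sources used here. The labels number the libraries 1 to 3 within a group without saying whether they came from separate mice or cultures, so the p-values measure the spread between these libraries, which may be technical.

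A naive T cell needs a signal through its antigen receptor and a costimulatory signal to become fully activated. CD80 and CD86, the classical B7 ligands, deliver that second signal through CD28 and are also bound by CTLA-4, which restrains the T cell, and ICOSL binds the related receptor ICOS. PD-L1 (the product of Cd274) and PD-L2 (Pdcd1lg2) bind the inhibitory receptor PD-1, and CD200 engages an inhibitory receptor carried mainly by myeloid cells. CD40 is the receptor by which a dendritic cell receives help from T cells bearing CD40 ligand, and it signals through TRAF adaptors to NF-kappaB. CD83 is a classical surface marker of mature dendritic cells.

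Sequence is shown for 3 of these genes because Cd274 and Pdcd1lg2 are neighbours on the same strand that encode ligands of the same receptor, and because Cd80 was the only gene of those matched with a motif searched for. The windows are the 250 bases before the RefSeq start on the strand of the gene, in build GRCm38.p6. RefSeq windows were matched for 5 of the 8 genes (Cd80, Icosl, Cd274, Pdcd1lg2 and Cd200), and those of Cd40, Cd83 and Cd86 were not matched. The Cd80 window lies at chr16:38458683-38458932 on the plus strand, the Cd274 window at chr19:29367188-29367437 on the plus strand, and the Pdcd1lg2 window at chr19:29410669-29410918 on the plus strand. The Cd80 window lies inside the span of the gene as annotated by GENCODE (chr16:38455561-38496335), downstream of its first base. The windows of Cd274 and Pdcd1lg2 lie before the first base of their genes. Capitals mark a match to the letters searched for AP-1 (TGANTCA), in which the middle base may be any base.
Cd80: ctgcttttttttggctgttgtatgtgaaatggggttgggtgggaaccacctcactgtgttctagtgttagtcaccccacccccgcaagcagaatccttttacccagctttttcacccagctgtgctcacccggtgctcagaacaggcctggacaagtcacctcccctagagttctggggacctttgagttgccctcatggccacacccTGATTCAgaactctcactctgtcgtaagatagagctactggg
Cd274: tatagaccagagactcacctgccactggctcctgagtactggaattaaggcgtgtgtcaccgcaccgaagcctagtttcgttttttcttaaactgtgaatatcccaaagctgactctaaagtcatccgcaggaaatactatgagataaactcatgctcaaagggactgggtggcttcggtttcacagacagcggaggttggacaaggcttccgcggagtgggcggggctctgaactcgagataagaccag
Pdcd1lg2: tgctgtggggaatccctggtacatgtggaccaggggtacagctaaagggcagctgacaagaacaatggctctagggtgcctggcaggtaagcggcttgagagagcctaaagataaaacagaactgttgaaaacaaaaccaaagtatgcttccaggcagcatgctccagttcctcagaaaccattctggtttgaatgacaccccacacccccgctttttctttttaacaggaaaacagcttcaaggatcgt

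The windows were searched on both strands for a consensus of the NF-kappaB site, a consensus of the interferon-stimulated response element (ISRE), the STAT element GAS (TTCNNNGAA) and AP-1 (TGANTCA). Among the 5 matched genes there was 1 match, TGATTCA in Cd80, with its first base at -42 from the RefSeq start, which is inside the GENCODE span of the gene. Over 32851 RefSeq windows of the same length, 4.11% held the NF-kappaB consensus, 2.98% the ISRE consensus, 7.02% the GAS letters and 6.75% the AP-1 letters. The AP-1 match in Cd80 overlaps no other match. A match is a description of the letters in the window, and its absence says only that the letters were not found there.

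Expression is given in FPKM, fragments per kilobase of transcript scaled to the library, a unit inferred from the deposited values. Reads recovered from these values came to 17285840 to 21980786 per library, and the 8 genes rested on 67 to 48314 reads in a library. Nanoparticle library 1 stood apart from the others of its group. Across the 10682 genes tested, which are not independent replicates, its correlation of log2(FPKM + 1) with nanoparticle libraries 2 and 3 was 0.942 and 0.928, against 0.990 between those libraries and 0.993 to 0.994 between vehicle libraries. The changes of the 8 genes are therefore given with and without it, and those of other genes only in part.

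Of the 8 genes, 7 were higher with nanoparticles, none was lower and Icosl did not pass the test (limma on log2(FPKM + 1), Benjamini-Hochberg adjusted p under 0.05 over all genes tested). Over all 10682 genes, 33.2% passed this test, 17.0% higher (1817 genes) and 16.2% lower (1733 genes). The median log2 change of the 8 genes was 2.16, beside -0.001 for all genes tested. The deposited values already carry a scaling between libraries that holds the typical gene near 0, so the second median largely follows from it. A log2 change of at least 1 was reached by 6 of them, beside 7.56% of all genes. Every nanoparticle library exceeded every vehicle library for the same 7 genes, beside 25.9% of all genes for which this held, 26.2% with the opposite order and 52.1% with either order. When libraries were scaled to their recovered read totals, which moved the median of all genes by -0.28, 1108 genes were higher and 3613 lower. The same 7 genes remained higher under that scaling, and Icosl was then lower. In RNA from a whole culture, a change in the share of cells of a type and a change in the RNA per cell cannot be told apart.

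**Figure D1:**
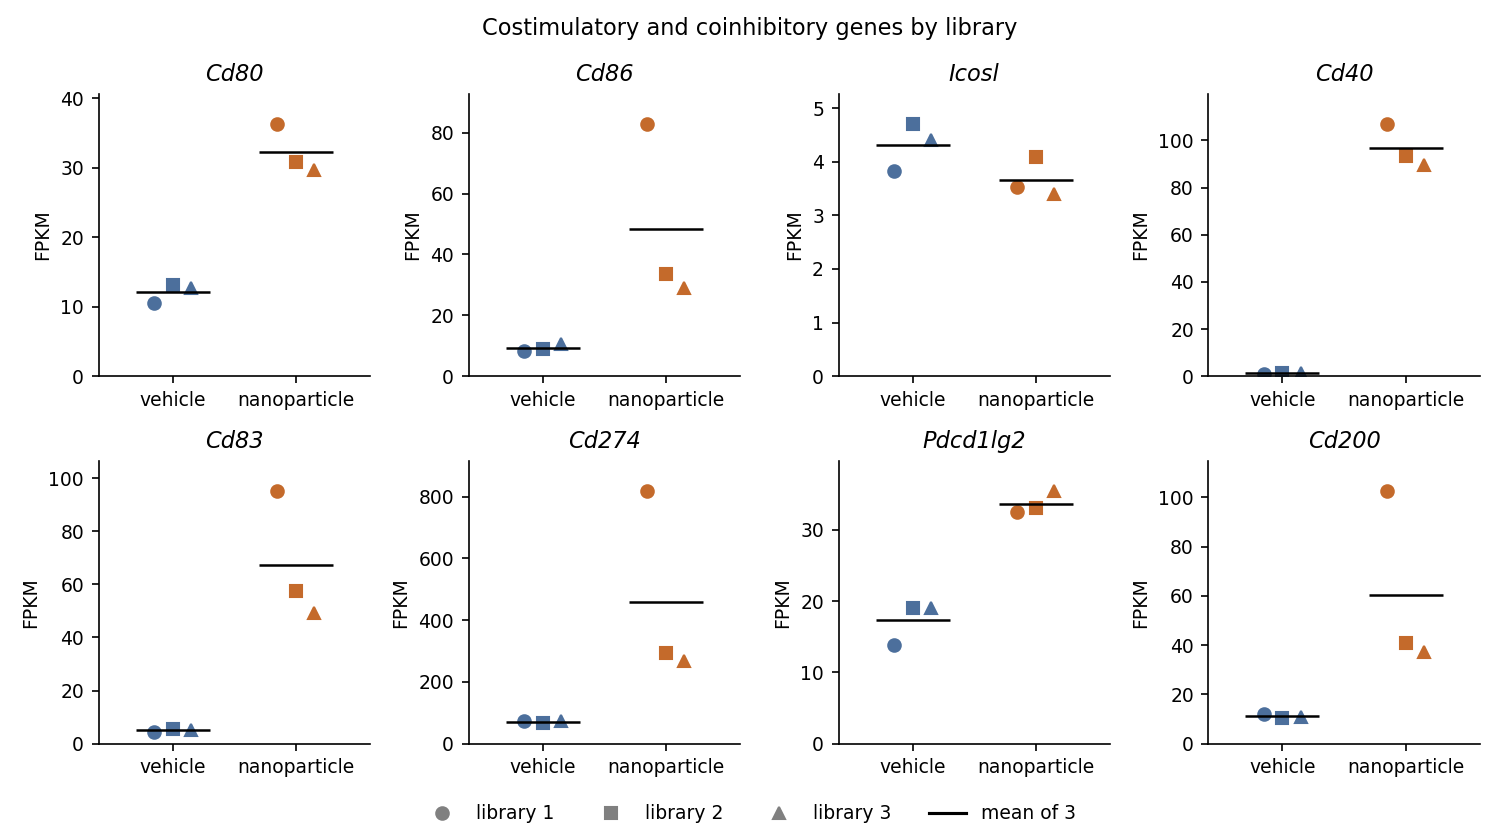
FPKM of each of the 8 genes (vertical axis, from 0, a separate scale per gene) in the 3 vehicle and 3 nanoparticle libraries, 1 point per library, with nanoparticle library 1 marked. The groups are apart for all genes but Icosl, and library 1 lies far above the other nanoparticle libraries for Cd86 (82.9), Cd274 (817) and Cd200 (102).

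Cd80 and Cd86, the CD28 ligands, both rose. Cd80 (chr16:38455561-38496335, plus strand, GRCm38) stood at 10.6, 13.1 and 12.7 FPKM in vehicle libraries 1 to 3 and at 36.3, 30.9 and 29.7 FPKM in nanoparticle libraries 1 to 3. The groups did not overlap, and the nanoparticle libraries lay close to each other. The nanoparticle mean of 32.3 ± 3.54 FPKM was 2.66-fold the vehicle mean of 12.1 ± 1.35 FPKM (SD, n = 3 each). On the log2 scale the change was 1.34 with an SE of 0.13 (limma, adjusted p = 0.000705), and it was 1.26 when nanoparticle library 1 was left out.

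Cd86 lies on the same chromosome (chr16:36603869-36666081, minus strand). It measured 8.14, 8.79 and 10.5 FPKM with vehicle and 82.9, 33.7 and 28.9 FPKM with nanoparticles. The groups were apart, and nanoparticle library 1 was 2.65 times the mean of libraries 2 and 3. The means of 9.13 ± 1.2 and 48.5 ± 29.9 FPKM (SD, n = 3 per group) differed 5.31-fold, or 3.42-fold without library 1. With all libraries the log2 change was 2.13 ± 0.39 (SE) at a limma adjusted p of 0.0073, and without library 1 it was 1.67 ± 0.12 (SE) at a limma adjusted p of 4.5e-05.

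Icosl, which encodes the ligand of ICOS, was the exception. At chr10:78069302-78083913 on the plus strand, it stood at 3.82, 4.71 and 4.4 FPKM with vehicle and at 3.53, 4.08 and 3.39 FPKM with nanoparticles. The groups overlapped, since nanoparticle library 2 exceeded vehicle library 1. Its log2 change was -0.19 (SE 0.11, 95% interval -0.46 to 0.09, limma adjusted p = 0.255). This interval holds no rise of the size seen for any other of the 8 genes, but it does hold a modest decrease. Leaving out nanoparticle library 1 gave a log2 change of -0.16. Under the scaling to read totals the change was -0.46 (limma adjusted p = 0.0202), relative to the shift of -0.28 in all genes.

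CD40 transcripts had the largest change of the 8 genes. Cd40 (chr2:165055627-165072948, plus strand) rested on 67, 84 and 108 reads with vehicle, which correspond to 0.987, 1.24 and 1.52 FPKM. With nanoparticles it rested on 5952, 5257 and 5865 reads, or 107, 93.3 and 89.4 FPKM. All nanoparticle libraries were high, and library 1 was only 1.17 times the mean of libraries 2 and 3. The ratio of means was 77.2. The log2 change was 5.44 ± 0.13 (SE, limma adjusted p = 8.62e-06), a smaller fold than that ratio because 1 FPKM was added to each value. Leaving out library 1 gave a log2 change of 5.36.

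Cd83, the maturation marker, followed with a 13.5-fold difference. Its values at chr13:43784775-43803132 on the plus strand were 4.57, 5.37 and 5.05 FPKM with vehicle and 95, 57.5 and 49.1 FPKM with nanoparticles. The groups were far apart, with nanoparticle library 1 the highest at 1.78 times the mean of the other nanoparticle libraries. Cd83 thus changed by 3.45 on the log2 scale (SE 0.24, limma adjusted p = 0.000245), and by 3.18 without library 1.

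The inhibitory ligands rose as well. Cd274, which encodes PD-L1, was the most abundant of the 8 genes in every library. It lies at chr19:29367455-29388095 on the plus strand and stood at 74.8, 68.2 and 72.2 FPKM with vehicle and at 817, 294 and 268 FPKM with nanoparticles. No vehicle library came near a nanoparticle library, and nanoparticle library 1 was 2.91 times the mean of libraries 2 and 3. The difference of means was 6.41-fold with library 1 and 3.92-fold without it. In log2 terms this was 2.47 ± 0.42 (SE, limma adjusted p = 0.00584), and 1.95 ± 0.07 (SE, limma adjusted p = 2.58e-06) when library 1 was left out. An annotated antisense gene, AC119228.1, shares 511 exon bases with Cd274, and whether the counting used strand is not given in the sources used here, so reads of the 2 genes may not have been separated.

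Pdcd1lg2, which encodes PD-L2, lies just downstream of Cd274 at chr19:29410919-29471161 on the plus strand. It had the smallest increase of the 7 genes. Its values were 13.9, 19.0 and 19.1 FPKM with vehicle and 32.5, 33.1 and 35.4 FPKM with nanoparticles. The groups did not overlap, and here nanoparticle library 1 was the lowest of its group. The means of 17.3 ± 3.0 and 33.7 ± 1.53 FPKM (SD, n = 3 each) differed 1.95-fold, or by 0.93 ± 0.15 (SE) in log2 terms (limma adjusted p = 0.00411). Leaving out library 1 gave a log2 change of 0.96. Whole reads were recovered for this gene with a length of 1645 bases and not with the merged exon length of 1961 bases, which bears on its level against other genes but not on its change.

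Cd200 (chr16:45382135-45409053, minus strand), whose product signals through the CD200 receptor, measured 12.1, 10.4 and 10.8 FPKM with vehicle. With nanoparticles it measured 102, 41.1 and 37.3 FPKM. All nanoparticle libraries were above all vehicle libraries, and library 1 was 2.62 times the mean of the other nanoparticle libraries. The difference was 5.44-fold, or 3.54-fold without library 1, which in log2 terms was 2.19 ± 0.38 (SE, limma adjusted p = 0.00593) and 1.74.

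**Figure D2:**
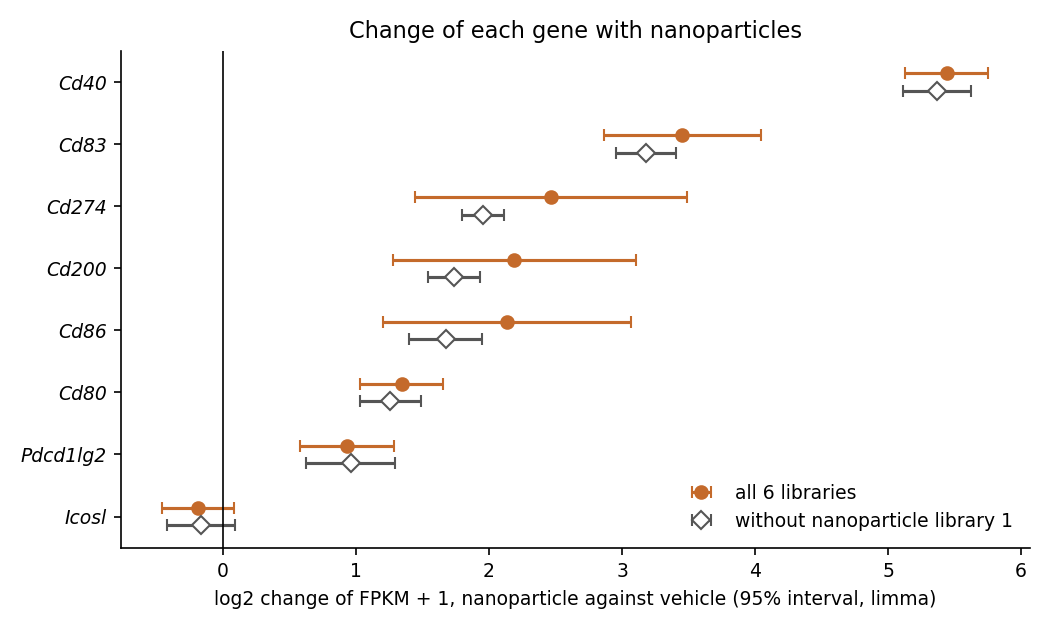
Log2 change of FPKM + 1 for each of the 8 genes, nanoparticle against vehicle, with 95% intervals from limma, for all libraries and without nanoparticle library 1. Cd40 is farthest to the right at 5.44, the interval of Icosl spans 0, and the intervals of Cd86, Cd274 and Cd200 narrow without library 1.

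The 8 genes ranged widely in how nanoparticle library 1 stood against the others of its group. For Cd86, Cd274 and Cd200 it was more than 2 times the mean of libraries 2 and 3, beside 7.89% of all genes tested. For Cd80, Cd40, Pdcd1lg2 and Icosl it lay at 1.2, 1.17, 0.95 and 0.94 times that mean, and Cd83 was between these sets at 1.78 times. Over the 6 libraries, which include both groups, the correlation of log2(FPKM + 1) was 0.9996 between Cd274 and Cd200 and 0.995 between Cd274 and Cd86, but 0.852 between Cd274 and its neighbour Pdcd1lg2. These correlations hold the difference between groups in them and are descriptions over 6 points.

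The order of levels changed. With vehicle, Cd274 led at 71.7 FPKM, followed by Pdcd1lg2 (17.3), Cd80 (12.1), Cd200 (11.1), Cd86 (9.13), Cd83 (5.0), Icosl (4.31) and Cd40 (1.25). Neighbours in this order whose libraries overlapped were Cd80 and Cd200, Cd200 and Cd86, and Cd83 and Icosl. With nanoparticles, Cd274 led at 460 FPKM and Cd40 moved from last place to the second at 96.6 FPKM. Cd83 (67.2), Cd200 (60.3), Cd86 (48.5), Pdcd1lg2 (33.7) and Cd80 (32.3) came next, each overlapping the gene before it in the order, and Icosl was last at 3.67 FPKM. Without library 1, Cd40 (91.3), Cd83 (53.3) and Cd200 (39.2) no longer overlapped each other, and Pdcd1lg2 (34.3) stood above Cd86 (31.3).

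As shares of the summed FPKM of the 8 genes, Cd40 went from 0.944% ± 0.175 to 13.6% ± 4.52 (SD, n = 3 each) and Cd83 from 3.79% ± 0.29 to 8.77% ± 1.2. Pdcd1lg2 went from 13.1% ± 2.05 to 4.91% ± 2.10, and Cd80, although higher in level, from 9.19% ± 0.91 to 4.53% ± 1.46. The Cd274 share was 54.4% ± 3.21 with vehicle and 54.5% ± 8.21 with nanoparticles. The 3 inhibitory ligands together (Cd274, Pdcd1lg2 and Cd200) made up 78.2%, 74.6% and 74.9% of the sum with vehicle and 74.6%, 62.7% and 63.0% with nanoparticles. Nanoparticle library 1 thus lay beside the vehicle libraries in this share and libraries 2 and 3 below them. The sum itself was 129, 131 and 136 FPKM with vehicle and 1277, 588 and 541 FPKM with nanoparticles.

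**Figure D3:**
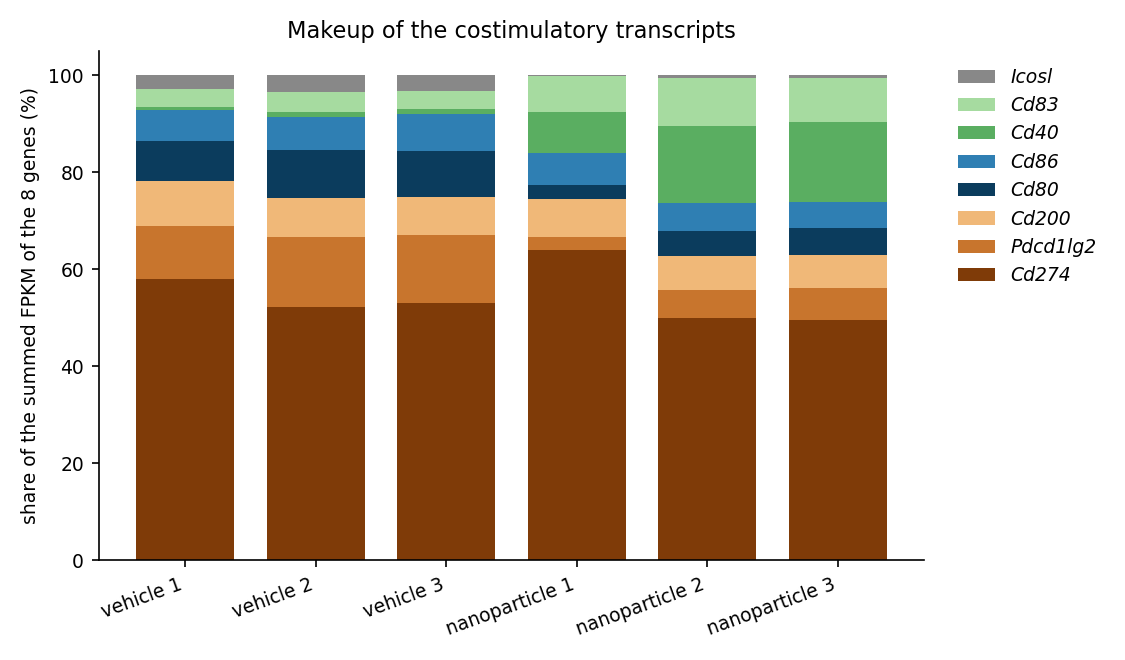
Share of the summed FPKM of the 8 genes taken by each gene (vertical axis, percent), 1 stacked bar per library. Cd274 takes the most in every library, and the Cd40 band widens from 0.944% on average with vehicle to 13.6% with nanoparticles.

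Ratios within a library do not depend on how libraries were scaled, and 5 were compared. The Cd80 to Cd86 ratio was 1.30, 1.49 and 1.21 with vehicle and 0.438, 0.917 and 1.03 with nanoparticles, lower in 3 of 3 libraries. The Cd274 to Pdcd1lg2 ratio was 5.4, 3.59 and 3.78 with vehicle and 25.1, 8.89 and 7.56 with nanoparticles, higher in 3 of 3 libraries. Both orders of libraries held without library 1, with log2 differences of -0.45 in place of -0.84 and of 0.97 in place of 1.51.

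The Cd274 to Cd80 ratio went from 7.07, 5.20 and 5.68 to 22.5, 9.53 and 9.02, a log2 difference of 1.07 that was 0.64 without library 1. The Cd40 to Cd83 ratio went from 0.216, 0.232 and 0.301 to 1.13, 1.62 and 1.82, a log2 difference of 2.60 that was 2.80 without library 1. The 4 ratios described so far each separated the groups, for which the exact two-sided permutation test gives p = 0.1, the smallest p that 3 libraries against 3 allow (Benjamini-Hochberg adjusted p = 0.125 over 5 ratios). The Cd274 to Cd86 ratio was 9.19, 7.76 and 6.90 with vehicle and 9.85, 8.73 and 9.28 with nanoparticles, with overlapping groups (exact permutation p = 0.2, adjusted p = 0.2).

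**Figure D4:**
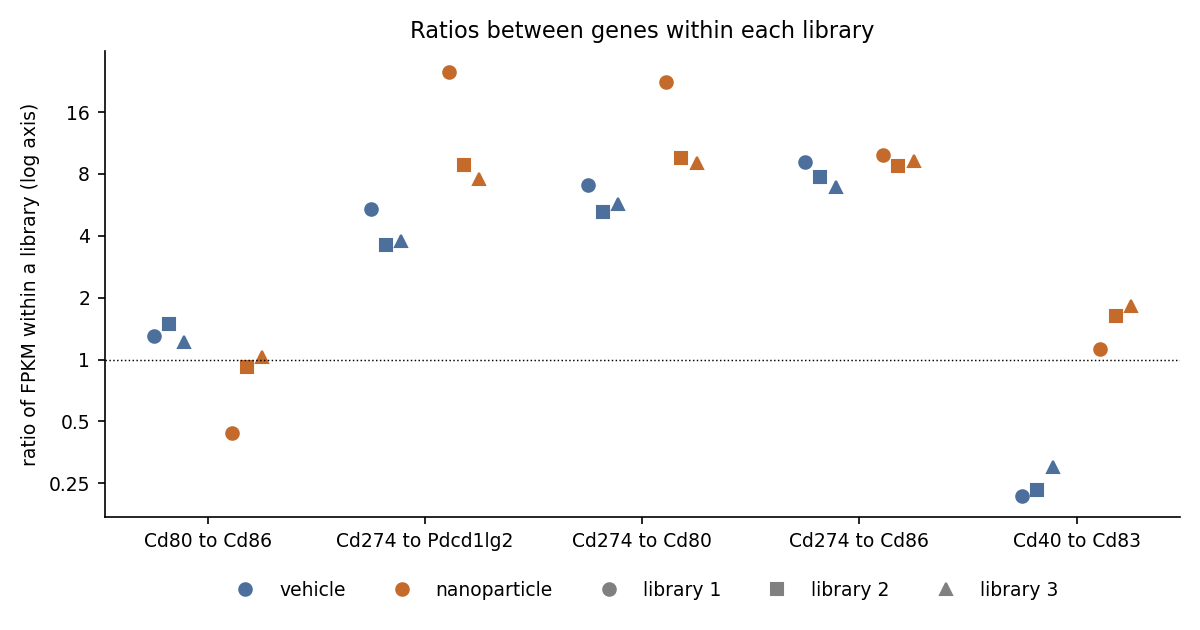
Ratio of the FPKM of 2 genes within each library (log axis), 1 point per library, vehicle beside nanoparticle for the 5 ratios. The groups are apart for every ratio but Cd274 to Cd86, where the vehicle value of 9.19 lies within the nanoparticle range of 8.73 to 9.85.

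The genes with the highest correlation of log2(FPKM + 1) with each of the 8 over the 6 libraries were as follows. For Cd40 they were Asf1a, Sdc4 and Acod1 (0.99996, 0.9999 and 0.9997), of which Acod1 encodes the enzyme that makes itaconate. For Cd83 they were Socs3, Clmp and Parp10 (0.9997, 0.9997 and 0.9994), of which Socs3 encodes an inhibitor of cytokine signalling. For Cd80 they were Upp1, Asb11 and Tank (0.9992, 0.9981 and 0.9981), and for Cd86 Lrrc58, Stx11 and Helz2 (0.9982, 0.9981 and 0.9979). For Cd274 they were Rnf213, Usp25 and Cd200 (0.9998, 0.9997 and 0.9996), and for Cd200 Pla2g4a, Cd274 and Lgals3bp (0.9998, 0.9996 and 0.9996). For Pdcd1lg2 they were Snx6, H2afy and Crcp (0.996, 0.996 and 0.994), and for Icosl Cc2d1b, Gm10031 and Spsb3 (0.982, 0.979 and 0.966). These were picked as the highest of all genes tested. The correlations hold the difference between groups in them, although Icosl itself was not called different.

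A list of other B7 and butyrophilin-like ligands had no tested gene that was called higher. Of 9 in the list, 7 had a row and 3 were tested, of which 2 were lower, 0 higher and 1 (Rgmb, 0.22) not called. The share of all genes tested that was lower was 16.2%. Rgmb is not itself a B7 protein. Vsir, which encodes the inhibitory ligand VISTA, stood at 57.3, 49.9 and 46.8 FPKM with vehicle and at 5.77, 10.6 and 10.7 FPKM with nanoparticles, with groups far apart. It fell by 2.42 on the log2 scale (SE 0.24, limma adjusted p = 0.000713). Cd276, which encodes B7-H3, went from 10.4 ± 0.87 to 3.58 ± 0.64 FPKM (SD, n = 3 per group), or by -1.32 ± 0.14 (SE) in log2 terms (limma adjusted p = 0.000856). Ildr2, Btn2a2, Btnl2 and Btnl9 were at or under 0.241 FPKM in every library and were not tested, and Vtcn1 and Btn1a1 were not analysed here.

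A list of 9 genes held receptors for these proteins, the ligand of CD40 and other members of the CD200 receptor family. Of these, 8 had a row and 4 were tested, of which 2 were lower, 0 higher and 2 not called, with a median log2 change of -0.84. All genes tested had 16.2% lower and 17.0% higher. Cd28, the receptor for CD80 and CD86, was low at 1.70 ± 0.26 FPKM with vehicle and lower still with nanoparticles, at 0.43 ± 0.19 FPKM (SD over 3 libraries, limma adjusted p = 0.00362). Cd200r4, a member of the CD200 receptor family, went from 134 ± 3.43 to 81.5 ± 22.4 FPKM (log2 change -0.75, limma adjusted p = 0.0413). That call was lost in 6 of 15 alternatives, among them leaving out any vehicle library or nanoparticle library 2. Cd200r1, the receptor for CD200, stood at 84.1, 79.6 and 82.4 FPKM with vehicle and at 18.1, 49.1 and 58.9 FPKM with nanoparticles. Its groups did not overlap, but it did not pass the test (log2 change -1.11, SE 0.42, limma adjusted p = 0.0888). Without library 1 it did (log2 change -0.60, limma adjusted p = 0.000937). Cd200r3, of the same family as Cd200r4, did not pass (0.03). Pdcd1, which encodes PD-1, and Ctla4 were at or under 0.149 FPKM in every library, and were not tested. Icos was not tested either, at 0.0439, 0.0147 and 0.126 FPKM with vehicle and 0.643, 0.317 and 0.333 FPKM with nanoparticles, low values whose groups did not overlap. With no filter on low values, 1 gene of this list was higher and 1 lower, beside 1635 higher and 1746 lower of all 23398 genes. Cd40lg was not analysed here.

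CD40 signals through TRAF adaptors and NF-kappaB, and 15 of the 17 genes of that list were higher, 0 lower and 2 not called, with a median log2 change of 1.07. Among all genes tested, 17.0% were higher and 16.2% lower. Traf1, an adaptor induced by NF-kappaB, stood at 2.04, 2.51 and 2.79 FPKM with vehicle and at 56.8, 32.7 and 30.5 FPKM with nanoparticles (log2 change 3.53, SE 0.25, limma adjusted p = 0.000236). Nfkbia, the inhibitor IkappaB-alpha, went from 35.1 ± 0.59 to 336 ± 63.9 FPKM and Nfkb2, the precursor of p52, from 20.6 ± 0.77 to 141 ± 28.5 FPKM (SD, n = 3 each). Their log2 changes were 3.21 and 2.70. Birc3, which encodes the ubiquitin ligase cIAP2, changed by 2.08. The genes not called were Map3k14, the kinase NIK (0.38, limma adjusted p = 0.109), and Chuk, the kinase IKK-alpha (-0.10, limma adjusted p = 0.538). Under the scaling to read totals 12 of the 17 were higher and 1 lower, beside 1108 higher and 3613 lower of all 10682 genes tested.

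Transcription factors of activated dendritic cells were higher in 9 of 16 cases and lower in 1, with 6 not called and a median log2 change of 1.03. The shares of all genes tested were 17.0% higher and 16.2% lower. Irf7, an interferon-induced factor, rose from 1.98 ± 0.11 to 199 ± 145 FPKM (SD over 3 libraries), with nanoparticle library 1 at 366 FPKM and libraries 2 and 3 at 106 and 124 FPKM. Irf1, through which interferon signals act, rose by 2.46 on the log2 scale, and Junb, an AP-1 subunit, by 1.55. Fos, another AP-1 subunit, was the lower gene at -0.94 (SE 0.12, limma adjusted p = 0.00192). Without library 1, 13 genes of the list were higher and 2 lower, beside 3660 higher and 3263 lower of all 10682 genes tested.

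Of 7 genes that control turnover of these surface proteins, 1 was higher, 1 lower and 5 not called. Over all genes tested, 33.2% passed, 17.0% higher and 16.2% lower. Marchf8, a membrane ubiquitin ligase that acts on CD86, changed by -0.50 (SE 0.09, limma adjusted p = 0.00884). This call was lost without vehicle library 1 or without vehicle library 3. Cops5, a COP9 signalosome subunit known to stabilise PD-L1, changed by 0.48 (SE 0.12, limma adjusted p = 0.0224), a call lost in 9 of 15 alternatives. Of the genes not called, Cmtm6, which protects PD-L1 from degradation, stood at 58.9 ± 2.14 and 65.6 ± 18.3 FPKM, and Marchf1, a ubiquitin ligase for CD86, at 22.8 ± 1.47 and 22 ± 6.16 FPKM (SD, n = 3 each). Without nanoparticle library 1, 4 of the 7 were higher and 2 lower, beside 3660 higher and 3263 lower of all 10682 genes tested. Without vehicle library 1 or 3, none passed in either direction.

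Among 16 other adhesion and checkpoint molecules, both ligands and receptors, 15 had a row and 13 were tested, with 5 higher, 2 lower and 6 not called. For comparison, 17.0% of all genes tested were higher and 16.2% lower. Lgals9, which encodes galectin-9, went from 46.1 ± 3.43 to 205 ± 14.4 FPKM, and Cd47, the ligand of SIRP-alpha, from 14.1 ± 0.08 to 45.5 ± 6.77 FPKM (SD, n = 3 each). Their log2 changes were 2.13 and 1.61. Icam1, the adhesion ligand for LFA-1, changed by 0.98, and Pvr and Nectin2, ligands of CD226 and TIGIT, by 1.43 and 1.73. Ceacam1 and Cd24a were lower at -1.05 and -1.16. Without library 1, 8 were higher and 3 lower, beside 3660 higher and 3263 lower of all 10682 genes tested. With any of the vehicle libraries left out 1 was lower. Slamf1 was not tested at 0.117 to 0.277 FPKM with vehicle and 14, 1.21 and 0.868 FPKM with nanoparticles, and Cd58 was not analysed here.

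**Figure D5:**
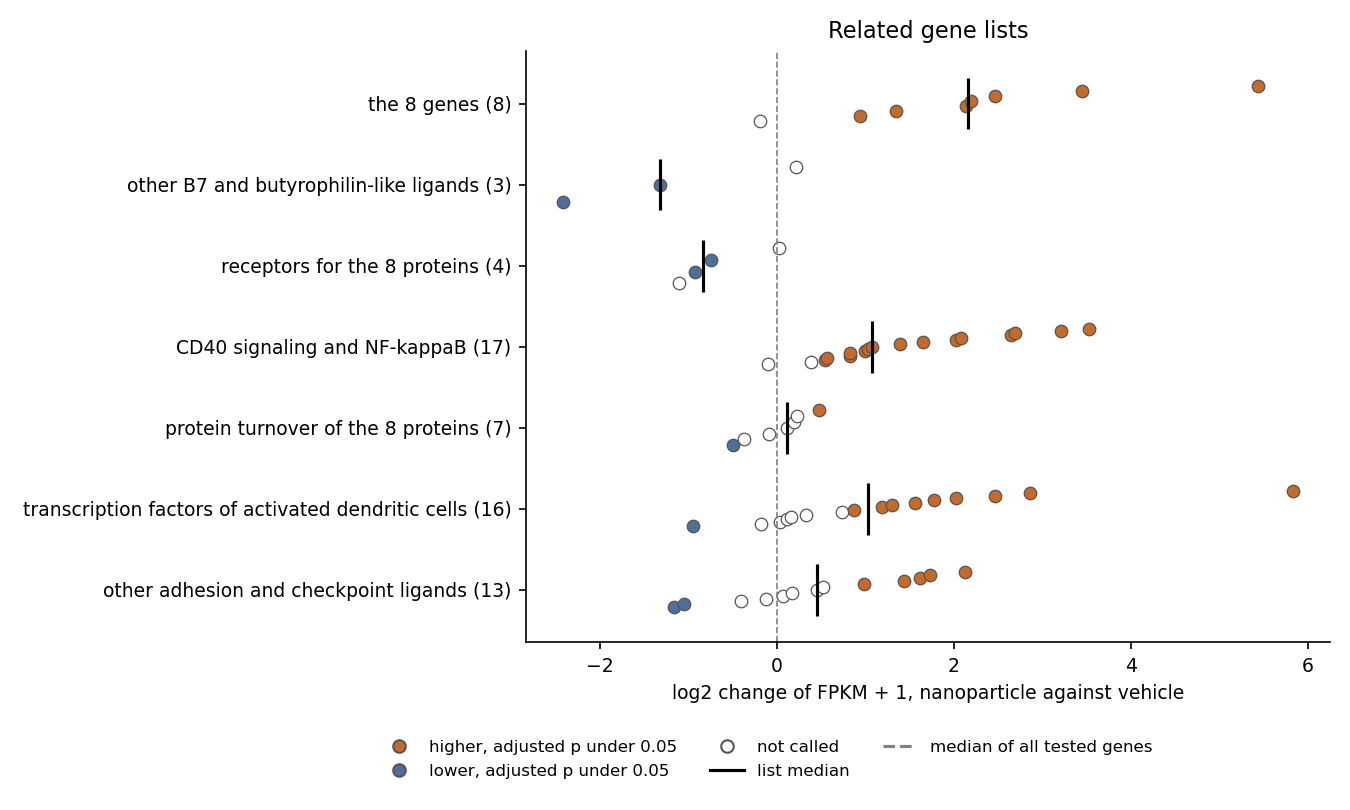
Log2 change of each tested gene (points) and its median in each related list, nanoparticle against vehicle, with the number of tested genes in parentheses and the median of all tested genes as a dashed line. The CD40 and NF-kappaB list has its median at 1.07, and the list of other B7 and butyrophilin-like ligands, with 3 tested genes, at -1.32.

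The label of dendritic cell was compared with marker genes. Of 7 dendritic cell markers, Itgax, which encodes CD11c, stood at 449 ± 7.16 and 340 ± 80.6 FPKM and Cd74 at 4116 ± 190 and 4111 ± 1613 FPKM (SD, n = 3 each). Zbtb46, a factor of conventional dendritic cells, was low at 3.97 ± 0.27 and 2.30 ± 0.52 FPKM, and Flt3 was at or under 0.0793 FPKM in every library. Zbtb46, Cd209a and Clec10a were lower with nanoparticles, 3 of 6 markers tested, although the call for Zbtb46 was lost with any of the vehicle libraries left out. Without nanoparticle library 1, Itgax passed as lower (-0.22) and Cd74 as higher (0.29, limma adjusted p = 0.0118). The summed FPKM of the list was 5355 to 5759 with vehicle and 3014 to 6813 with nanoparticles.

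Macrophage markers were also abundant: their sum was 607 to 621 FPKM with vehicle and 821 to 1112 FPKM with nanoparticles. Of the 6, 3 were higher and 1 lower, beside 17.0% higher and 16.2% lower of all genes tested. Adgre1, which encodes F4/80, rose from 66.1 ± 2.81 to 183 ± 80.3 FPKM (SD over 3 libraries, limma adjusted p = 0.0123), a call lost without vehicle library 1 or 3. Fcgr1 and Cd68 rose too, although the call for Cd68 was lost with any of the vehicle libraries left out and its change was -0.0199 after quantile normalization. The defining marker Mertk, at 23.3 and 19.9 FPKM, was not called with all libraries and was lower without nanoparticle library 1 (-0.46). The part of these markers in the changes of the 8 genes was not tested.

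Markers of B cells and T cells were low. The summed B cell markers were 0.140 to 0.394 FPKM with vehicle and 0.0410 to 0.261 FPKM with nanoparticles, and the T cell markers 0.0278 to 0.118 and 0.0152 to 0.0999 FPKM. Pax5, Cd3e, Cd3g, Siglech and Col1a1 were at or near 0 in every library. The plasmacytoid dendritic cell markers summed to 0.769 to 0.901 FPKM with vehicle and 1.03 to 1.53 FPKM with nanoparticles. Most of that sum was Tcf4, at 0.764 to 0.873 and 0.975 to 1.38 FPKM. Neutrophil markers summed to 34.7 to 39.0 FPKM with vehicle and 50.8 to 125 FPKM with nanoparticles, most of it S100a8, whose call was lost with the same libraries left out as for Cd200r4, with the defining markers Ly6g and Elane at or under 0.307 FPKM. The endothelial and stromal list went from 1.01 to 1.29 FPKM to 1.98 to 5.09 FPKM, mostly through Kdr, whose call (limma adjusted p = 0.0491) was lost with any of the vehicle libraries or nanoparticle library 2 left out, while its defining marker Cdh5 stood at 0.50 ± 0.12 and 0.64 ± 0.16 FPKM (SD, n = 3 each). S100a9 was not called with all libraries and passed as higher without nanoparticle library 1 (2.54). In the neutrophil, the endothelial and stromal, the plasmacytoid dendritic cell and the macrophage lists the groups did not overlap in their sums, and the part of such cells in the changes of the 8 genes was not tested.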

How the data were processed

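The authors deposited 1 value per gene and library, for 23398 genes, in 2 tables whose 140388 values are identical. The deposited values were read as FPKM, a unit inferred from the values: with GENCODE M21 exon lengths, 95.8% to 96.1% of them became whole reads (within 0.01) after 1 scale per library. These scales followed size factors within 0.00986%, so the values already carry a scaling between libraries. Gene IDs matched GENCODE M21 (GRCm38) for 23366 genes. Per the submitters' processing notes, CASAVA, STAR 2.5, HTSeq, edgeR 3.16.5 and DESeq2 were used, with the builds mm10 and hg19 named without their roles. Per the labels' protocols, total RNA went into NEBNext Ultra II libraries.

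A gene was tested if 3 or more libraries had 1 FPKM or more (10682 genes). A linear model of log2(FPKM + 1) on group was fitted with limma 3.58.1 (eBayes with trend, prior of 2.33 degrees of freedom) in R 4.3.3, with Benjamini-Hochberg adjustment over all genes and a threshold of 0.05. Count tests were not the primary test because the values are not counts. The procedure was tested on simulated data. Ratios were compared with exact two-sided permutation tests (scipy 1.17.1, Python 3.11.15, numpy 2.4.6, pandas 2.3.3). Plots used matplotlib 3.10.9. Counting error covers reads without molecular identifiers, which are not independent molecules.

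The 8 genes and the gene lists were chosen with earlier results of these data known. Named were the 8 genes, up to 4 genes per list past the threshold whose libraries separated the groups (smallest adjusted p first), the defining cell type markers, and the 3 genes most correlated with each of the 8. Other genes are named to spell out small counts or for their known role and were chosen after their values were seen. Results of 3 list genes are not reported here. The alternatives were other scalings, filters, pseudocounts and fits, a replicate block and leaving out each library. Scaling to read totals and limma-voom on recovered reads were added after seeing the data.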

Additional observations from a re-analysis of the deposited data

How the results depend on the processing

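The 7 higher genes of the 8 stayed past the threshold in all 15 alternative fits (2 of them added after seeing the data), with adjusted p-values of at most 0.0405 (limma, Pdcd1lg2 with libraries scaled to the same sum of FPKM), and 118 of 120 values for the 8 genes kept their call. The exceptions were Icosl, lower with libraries scaled to the same sum of FPKM (-0.56, limma adjusted p = 0.0137) or to recovered read totals (-0.46, limma adjusted p = 0.0202), so that 1 of the 8 genes was then lower. These scalings moved the median of all genes by -0.38 and -0.28. They gave 881 genes higher and 4306 lower, and 1108 higher and 3613 lower, against 1817 and 1733. Leaving out 1 library at a time gave 2141 to 6923 genes past the threshold, 1114 to 3660 higher and 1027 to 3263 lower, the largest counts without nanoparticle library 1. The cause of these differences was not tested. Cd68 was reversed under quantile normalization (-0.0199). Libraries with the same number did not deviate together (correlations of 0.07, 0.11 and -0.06), and not every library correlated best with its own number. With a replicate block, 2785 genes passed, 1451 higher and 1334 lower, and 7 of the 8 genes were higher. For Cd40 in vehicle, 67 to 108 reads limit the precision of the fold.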

Other observations

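The 2 nearest tested genes on each side of the 8 on the chromosome, chosen by position after the data had been seen, came to 28 genes other than the 8. Of these, 11 were higher, 2 lower and 15 not called (limma, adjusted p under 0.05), so that 46.4% passed, beside 33.2% of all genes tested. Around Cd274, Insl6 went from 24.5 ± 0.82 to 96.7 ± 21.8 FPKM (SD, n = 3 each), a change of 1.91 ± 0.17 (SE) in log2 terms at a limma adjusted p of 0.000509. Plgrkt, which starts beside Cd274 and runs the other way, went from 14.7 ± 1.03 to 23.9 ± 5.55 FPKM (log2 change 0.64, limma adjusted p = 0.0393). Beyond Pdcd1lg2, A930007I19Rik went from 1.88 ± 0.09 to 5.46 ± 1.16 FPKM (log2 change 1.15, limma adjusted p = 0.00186), and Ric1 did not pass the test (0.48, limma adjusted p = 0.292). A930007I19Rik lies on the other strand, and its span overlaps the end of the Pdcd1lg2 span, but the 2 genes share no annotated exon bases.

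Beside Cd80, Pla1a, which encodes a phospholipase specific for phosphatidylserine, went from 0.29 ± 0.17 to 20.8 ± 14.8 FPKM (SD over 3 libraries), or by 3.88 in log2 terms (limma adjusted p = 0.00113). Adprh and Poglut1 rose by 0.89 and 0.95 on the log2 scale, and Timmdc1, next to Cd80 on its other side, did not pass (0.27, limma adjusted p = 0.112). Beside Cd40, Elmo2, which acts in engulfment and cell migration, fell by 1.71 (SE 0.21, limma adjusted p = 0.00175), while Ncoa5 rose by 0.49 (limma adjusted p = 0.0198), and Mmp9 and Slc35c2 did not pass (limma adjusted p = 0.117 and 0.0502). Beside Cd86, Stfa3 and Hcls1 rose by 1.68 and 0.98, and Stfa2 and Golgb1 did not pass (limma adjusted p = 0.535 and 0.684). Jarid2 beside Cd83 and Dnmt3l beside Icosl rose by 0.94 and 1.16, Gm4737 beside Cd200 fell by 0.70, and the other 9 neighbours of these 3 genes did not pass.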
